A study of Rattus norvegicus with 10 samples.

Results

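Glycolysis and mitochondrial fuel use were followed here through 4 genes, Pgk1, Ldha, Sdha and Pdk3, read by 5 of the 62 linear-transcript probes of a rat circular RNA (circRNA) array. The members were taken as the non-control probes whose annotated transcript is the RefSeq rat transcript of one of these genes: CUST_2_PI421900130 for Pgk1 (NM_053291.3), A_44_P210461 and CUST_6_PI421900130 for Ldha (NM_017025), CUST_12_PI421900130 for Sdha (NM_130428.1) and A_44_P443343 for Pdk3 (NM_001106581). They are 4 of the 38 genes that a linear-transcript probe measures by name. The study compared synovial tissue, the lining of the joint, between 5 samples from normal rats and 5 from rats in which collagen immunisation had produced an inflammatory joint disease, collagen-induced arthritis (CIA). All rats were male and 7 to 8 weeks old, and the samples are labelled day 21. Strain, collagen and adjuvant are not given in the sources used here, and nothing in the labels ties each numbered sample to its own animal; the p-values thus rest on sample-to-sample spread that could be technical. Every sample was total RNA treated, before Cy3 labelling, with RNase R, which digests RNA from free ends and leaves closed circles. The probes therefore read what was left of these messenger RNAs, or circles that share the exon.

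In glycolysis, a cell splits glucose into pyruvate in the cytosol. Pgk1 encodes phosphoglycerate kinase 1, which makes ATP in the second phase of that pathway, and Ldha encodes lactate dehydrogenase A, which turns pyruvate into lactate and so lets glycolysis run on when oxygen is short. Pdk3 encodes a kinase that inactivates pyruvate dehydrogenase, the enzyme that admits pyruvate to the citric acid cycle. Sdha encodes the catalytic flavoprotein subunit of succinate dehydrogenase, which serves both the citric acid cycle and the respiratory chain. Inflamed synovium is known as a hypoxic tissue, and hypoxia-inducible factors are known to raise glycolytic genes.

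The promoters of Ldha and Pdk3 are shown because both hold ACGTG, a form of the core motif bound by hypoxia-inducible factors. GCGTG, the other form of that core, was neither searched nor marked. The means of Pdk3 and of one Ldha probe also lay on opposite sides of normal in CIA, though neither passed the adjusted test. Each window runs from 250 bases before the transcription start to 50 after it, 5′ to 3′ on the gene's strand, from RefSeq on GRCr8, and capitals mark ACGTG or its reverse complement CACGT.
Ldha, chr1:106507842-106508141, + strand: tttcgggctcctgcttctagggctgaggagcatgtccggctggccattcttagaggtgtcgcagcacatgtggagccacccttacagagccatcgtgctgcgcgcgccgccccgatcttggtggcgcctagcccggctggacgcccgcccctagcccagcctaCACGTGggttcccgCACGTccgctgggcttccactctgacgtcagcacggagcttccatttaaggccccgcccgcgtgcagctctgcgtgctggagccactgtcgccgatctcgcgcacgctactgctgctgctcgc
Pdk3, chrX:62547322-62547621, - strand: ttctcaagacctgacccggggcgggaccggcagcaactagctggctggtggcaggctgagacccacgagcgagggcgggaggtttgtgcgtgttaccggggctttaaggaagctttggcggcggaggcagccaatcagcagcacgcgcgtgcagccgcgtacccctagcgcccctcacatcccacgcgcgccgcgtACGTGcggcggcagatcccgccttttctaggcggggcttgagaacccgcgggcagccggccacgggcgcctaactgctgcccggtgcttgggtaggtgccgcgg
Ldha held 3 matches on both strands together, of which 2 overlap in the palindrome CACGTG, and Pdk3 held 1. The Sdha window held neither ACGTG nor CACGT, which does not cover GCGTG. At least 1 match was present in 19.3% of the 33469 promoters of the same length, and 3 or more in 1.69%. The matches are letters in a window and were not tested for binding. Of the members, 3 matched an entry of the promoter table. Pgk1 did not, so its promoter was not searched for the motif.

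Levels are given as the log2 processed signal of a probe minus the 75th percentile of the circRNA probes on the same array, averaged over the 10 spots that each probe has per array, less spots marked as outliers. Levels of different probes are not compared with each other. That percentile lay between 133 and 315 signal units on the normal arrays and between 263 and 381 on the CIA arrays. All spots of the 5 member probes were well above background on all 10 arrays and none was saturated. The file headers place normal replicate 1 and the 5 CIA arrays in scan run 1 and normal replicates 2 to 5 in scan run 2, so that the scan run nearly follows the group. Over the 62 linear-transcript probes, limma called 2 (3.23%) at a Benjamini-Hochberg adjusted p under 0.05, and no member was among them. An unadjusted p under 0.05 was reached by 19 of the 62 probes (30.6%) and by 3 of the 5 member probes, those of Pgk1 and Pdk3 and A_44_P210461 of Ldha. The median log2 difference was 0.08 over the 5 member probes and 0.12 over the 62. Fewer cells of a type and less RNA per cell cannot be told apart in such bulk samples. How much of each messenger RNA the RNase R digestion left in each sample was not tested either.

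**Figure D1:**
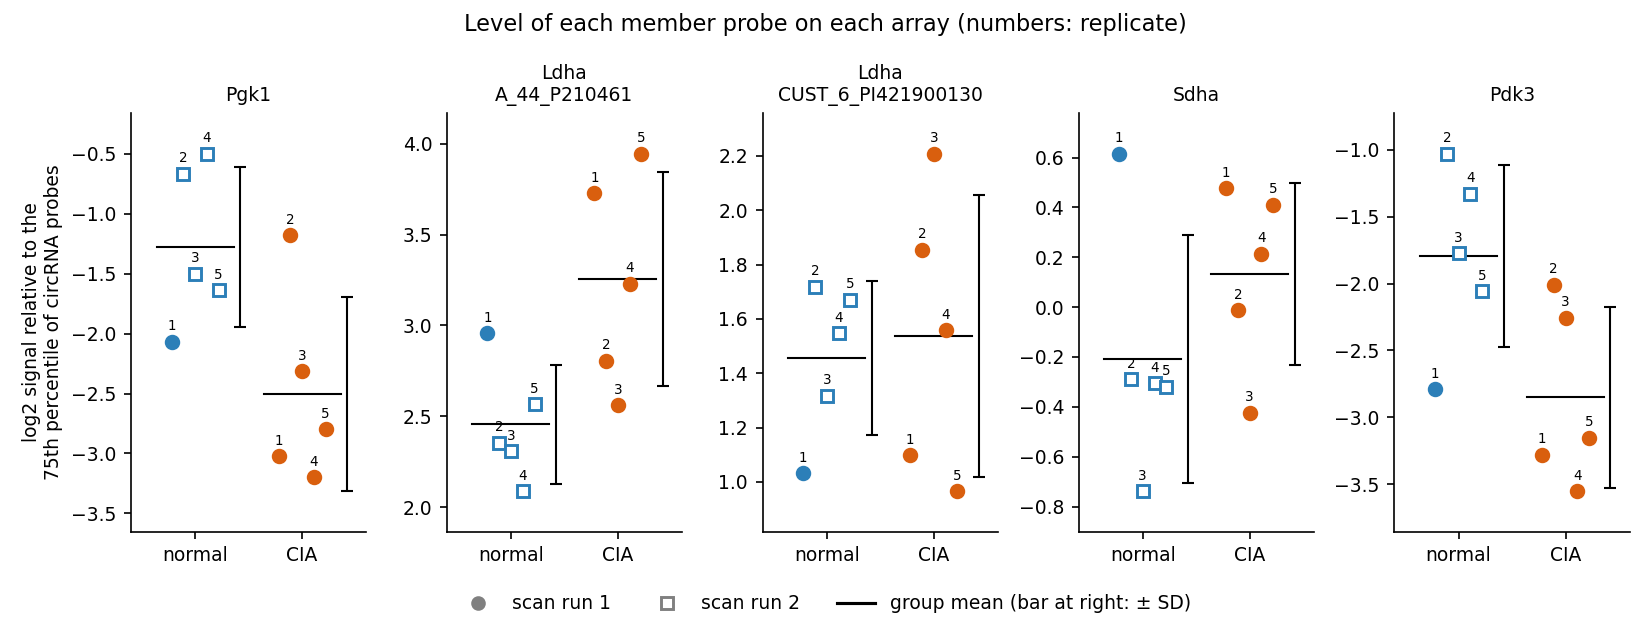
Level of each member probe on each array, as log2 signal relative to the 75th percentile of circRNA probes, with a scale of its own in each panel; circles are arrays of scan run 1, open squares those of scan run 2, numbers the replicates, lines the group means and bars ± SD (n = 5 each). Pgk1 and Pdk3 lay lower on most CIA arrays, Ldha A_44_P210461 higher, and the groups overlapped for every probe.

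Pgk1 read 2.34-fold lower on the CIA arrays, a difference that did not pass the adjusted test. Its log2 level on normal replicates 1 to 5 was -2.07, -0.67, -1.50, -0.50 and -1.64. On CIA replicates 1 to 5 it was -3.02, -1.18, -2.32, -3.20 and -2.80. Thus 4 of the 5 CIA arrays lay below every normal array, while CIA replicate 2 lay among the normal arrays. The group means were -1.27 ± 0.67 and -2.50 ± 0.81 (SD, n = 5 each), with a log2 difference of -1.23 (SE 0.45, limma adjusted p = 0.11 over the 62 probes; two-sided exact permutation p = 0.048, adjusted 0.17). The spots of the probe differed little within an array, by a median SD of 0.10 on the log2 scale, so the spread lay between arrays. The call depended on single arrays. Without CIA replicate 2 the difference was -1.56 (limma adjusted p = 0.048), where 3 of the 62 probes (4.84%) passed. Without normal replicate 1 it was -1.43 (limma adjusted p = 0.029), where 24 of the 62 (38.7%) passed and group and scan run cannot be told apart. Over the 10 fits that each left out 1 array, the limma adjusted p of Pgk1 ran from 0.029 to 0.27, and it did not pass in the other 8.

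Ldha was read by a pair of probes that gave different pictures. A_44_P210461 read 1.74-fold higher on the CIA arrays. Its level was 2.96, 2.35, 2.31, 2.09 and 2.57 on normal replicates 1 to 5. It was 3.73, 2.81, 2.56, 3.23 and 3.95 on CIA replicates 1 to 5. CIA replicates 1, 4 and 5 lay above every normal array, and CIA replicates 2 and 3 lay below normal replicate 1. The means were 2.46 ± 0.33 in normal and 3.25 ± 0.59 in CIA (SD, n = 5 each), a log2 difference of 0.80 (SE 0.34, limma adjusted p = 0.12; two-sided exact permutation p = 0.040, adjusted 0.17).

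The other Ldha probe, CUST_6_PI421900130, showed no group difference beyond its spread. It read 1.03, 1.72, 1.32, 1.55 and 1.67 on normal replicates 1 to 5 and 1.10, 1.86, 2.21, 1.56 and 0.97 on CIA replicates 1 to 5. The CIA arrays spanned the normal range on both sides. The means were 1.46 ± 0.28 and 1.54 ± 0.52 (SD, n = 5 each), and the log2 difference was 0.08 (SE 0.31, 95% confidence interval -0.61 to 0.77, limma adjusted p = 0.86). This small difference turned to -0.06 when arrays were scaled to the median of the circRNA probes, -0.03 without normal replicate 1 and -0.09 without CIA replicate 3. Among the CIA arrays the order of the Ldha probes was exactly reversed: replicate 5 was highest for A_44_P210461 and lowest for CUST_6_PI421900130, followed by replicates 1, 4, 2 and 3. The RefSeq table names 30 Ldha and 8 Pgk1 pseudogenes in the rat genome. How far such copies, or circles that share an exon, enter each probe's signal was not tested.

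**Figure D2:**
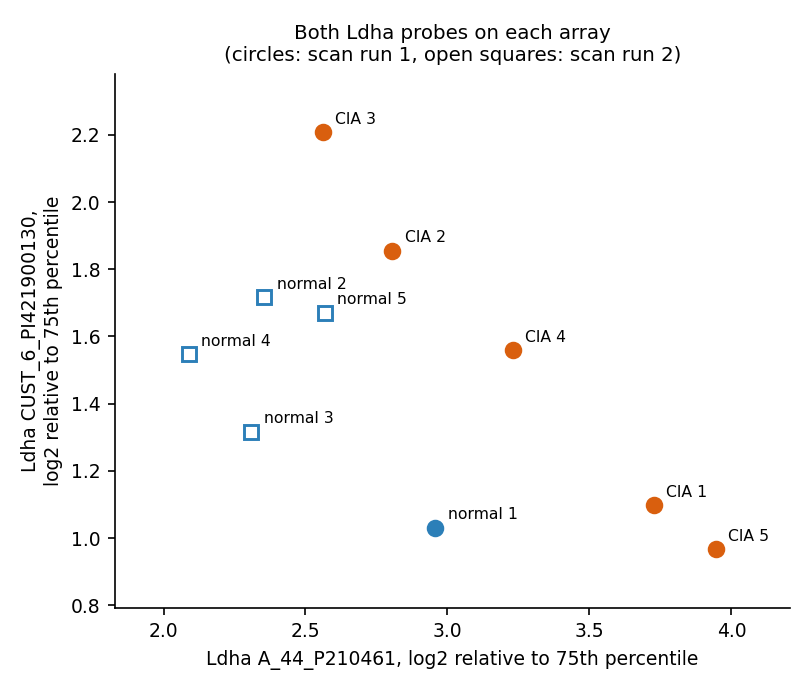
Level of Ldha on each array by probe A_44_P210461 (horizontal) and probe CUST_6_PI421900130 (vertical), both as log2 signal relative to the 75th percentile of circRNA probes. The 5 CIA arrays run from upper left to lower right, from replicate 3 (2.56 and 2.21) to replicate 5 (3.95 and 0.97), and normal replicate 1 (2.96 and 1.03) stands apart from the normal arrays of scan run 2.

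Pdk3, at the entry of pyruvate to the mitochondrion, followed Pgk1 rather than A_44_P210461 of Ldha. Over the 10 arrays Pdk3 had a Pearson r of 0.96 with Pgk1, -0.87 with A_44_P210461 and 0.47 with CUST_6_PI421900130. Its level was -2.79, -1.03, -1.77, -1.33 and -2.06 on normal replicates 1 to 5. On CIA replicates 1 to 5 it was -3.28, -2.01, -2.26, -3.55 and -3.15. CIA replicates 1, 4 and 5 lay below every normal array, and normal replicate 1 lay below CIA replicates 2 and 3. The means were -1.79 ± 0.68 and -2.85 ± 0.68 (SD, n = 5 each), a log2 difference of -1.06 or 2.08-fold lower (SE 0.42, limma adjusted p = 0.12; two-sided exact permutation p = 0.048, adjusted 0.17). Without normal replicate 1 the difference was -1.30 (limma adjusted p = 0.026), again with 38.7% of the 62 probes past the threshold, and each group then lay in its own scan run. The limma adjusted p of Pdk3 ran from 0.026 to 0.27 over the fits that left out 1 array, and the other 9 did not pass. The Pdk3 probe read 30.7 to 91.8 signal units, with a within-array spot SD of up to 0.36 on CIA replicate 1.

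Sdha, in the citric acid cycle, differed by less than its spread. It read 0.62, -0.29, -0.74, -0.31 and -0.32 on normal replicates 1 to 5 and 0.48, -0.013, -0.42, 0.21 and 0.41 on CIA replicates 1 to 5. Its highest array was normal replicate 1, and 4 of the 5 CIA arrays lay above the normal arrays of scan run 2. The means were -0.21 ± 0.50 and 0.13 ± 0.36 (SD, n = 5 each), a log2 difference of 0.34 (SE 0.32, 95% confidence interval -0.36 to 1.04, limma adjusted p = 0.49).

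The probes of the members thus spread over the array's linear transcripts rather than to one side. Counted from the lowest log2 difference of the 62, Pgk1 stood at rank 8, Pdk3 at 9, CUST_6_PI421900130 of Ldha at 28, Sdha at 43 and A_44_P210461 of Ldha at 54. Groups that do not overlap were found for 3 of the 62 probes (4.84%) and for 0 of the 5 member probes. The sizes depended on the scaling. With no scaling between arrays the log2 difference was -0.40 for Pgk1 and -0.23 for Pdk3, against -1.23 and -1.06 with it. For Sdha it was 1.17 against 0.34. For A_44_P210461 and CUST_6_PI421900130 of Ldha it was 1.63 and 0.91, against 0.80 and 0.08.

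**Figure D3:**
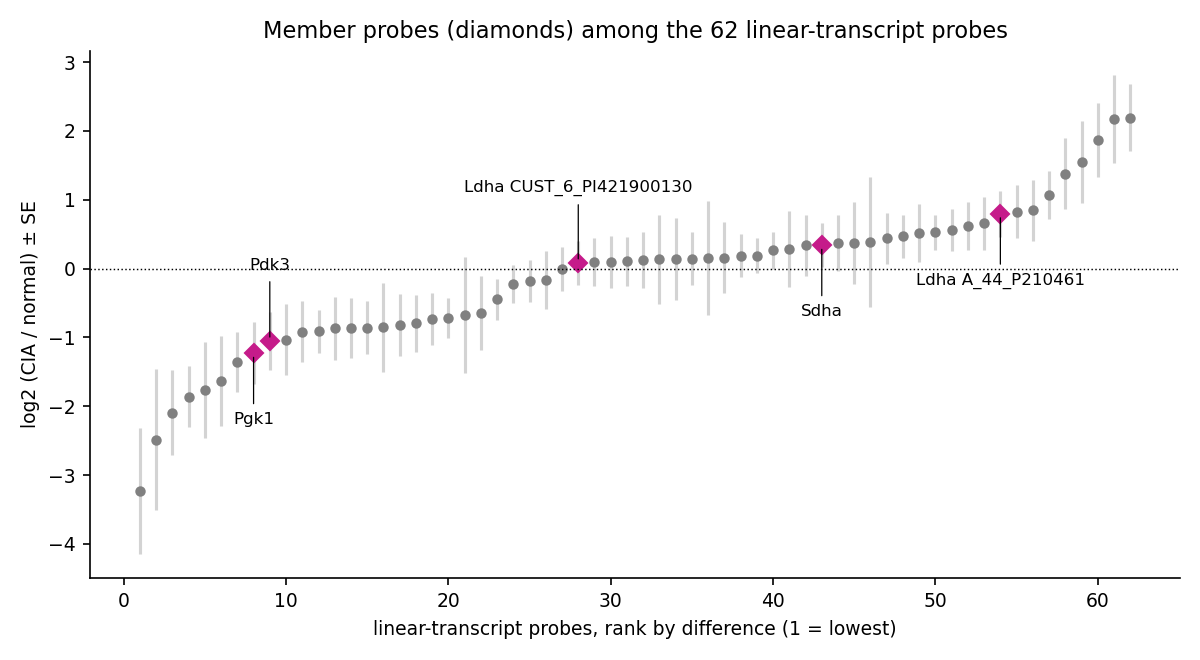
Log2 difference of CIA against normal arrays with its SE for the 62 linear-transcript probes in rank order, with the 5 member probes as diamonds. Pgk1 (-1.23) and Pdk3 (-1.06) lie near the lower end, Ldha A_44_P210461 (0.80) toward the upper end, and Sdha (0.34) and Ldha CUST_6_PI421900130 (0.08) between them.

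Because scaling moves every probe of an array alike, the members were also compared with each other within arrays, as the log2 difference between a pair of probes. Of the 10 pairs, 4 had a two-sided exact permutation p under 0.05, and none had an adjusted p under 0.05 over the 10 pairs. Among all 1891 pairs of linear-transcript probes 27.5% reached the same unadjusted level. Each of the members' 4 set Pgk1 or Pdk3 against an Ldha probe. Pgk1 read 39.1 to 118 and Pdk3 30.7 to 91.8 signal units, against 659 to 5732 for A_44_P210461 and 332 to 1759 for CUST_6_PI421900130. A difference within arrays does not remove effects of signal level, and their part was not tested. The members' pairs were chosen with earlier results of these data known. For CUST_6_PI421900130 of Ldha minus Pdk3, the values were 3.82, 2.75, 3.09, 2.88 and 3.73 on normal replicates 1 to 5 and 4.38, 3.86, 4.47, 5.11 and 4.12 on CIA replicates 1 to 5. All CIA arrays lay above all normal arrays in this pair, as they did, in one direction or the other, in 7.3% of the 1891 pairs, with means of 3.25 ± 0.49 and 4.39 ± 0.47 (SD, n = 5 each). The difference of 1.14 had an exact permutation p of 0.0079, the smallest that 5 arrays against 5 can give, and an adjusted p of 0.079.

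Pgk1 minus A_44_P210461 of Ldha was -5.02, -3.02, -3.81, -2.59 and -4.21 on normal replicates 1 to 5 and -6.75, -3.98, -4.88, -6.43 and -6.74 on CIA replicates 1 to 5. CIA replicates 1, 4 and 5 lay below every normal array and CIA replicates 2 and 3 among them. The means differed by -2.03 (SE 0.71, exact permutation p = 0.040, adjusted 0.079). Pgk1 minus CUST_6_PI421900130 differed by -1.31 (SE 0.38, exact permutation p = 0.024, adjusted 0.079), and A_44_P210461 minus Pdk3 by 1.85 (SE 0.69, exact permutation p = 0.040, adjusted 0.079). Pgk1 minus Pdk3 was 0.52 ± 0.24 in normal and 0.35 ± 0.32 in CIA (SD, n = 5 each), a difference of -0.17 (SE 0.18, exact permutation p = 0.37, adjusted 0.41). The Ldha probes differed from each other by 1.00 ± 0.55 in normal and 1.72 ± 1.10 in CIA (SD, n = 5 each), and this change of 0.72 did not exceed the spread (SE 0.55, exact permutation p = 0.24, adjusted 0.30).

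**Figure D4:**
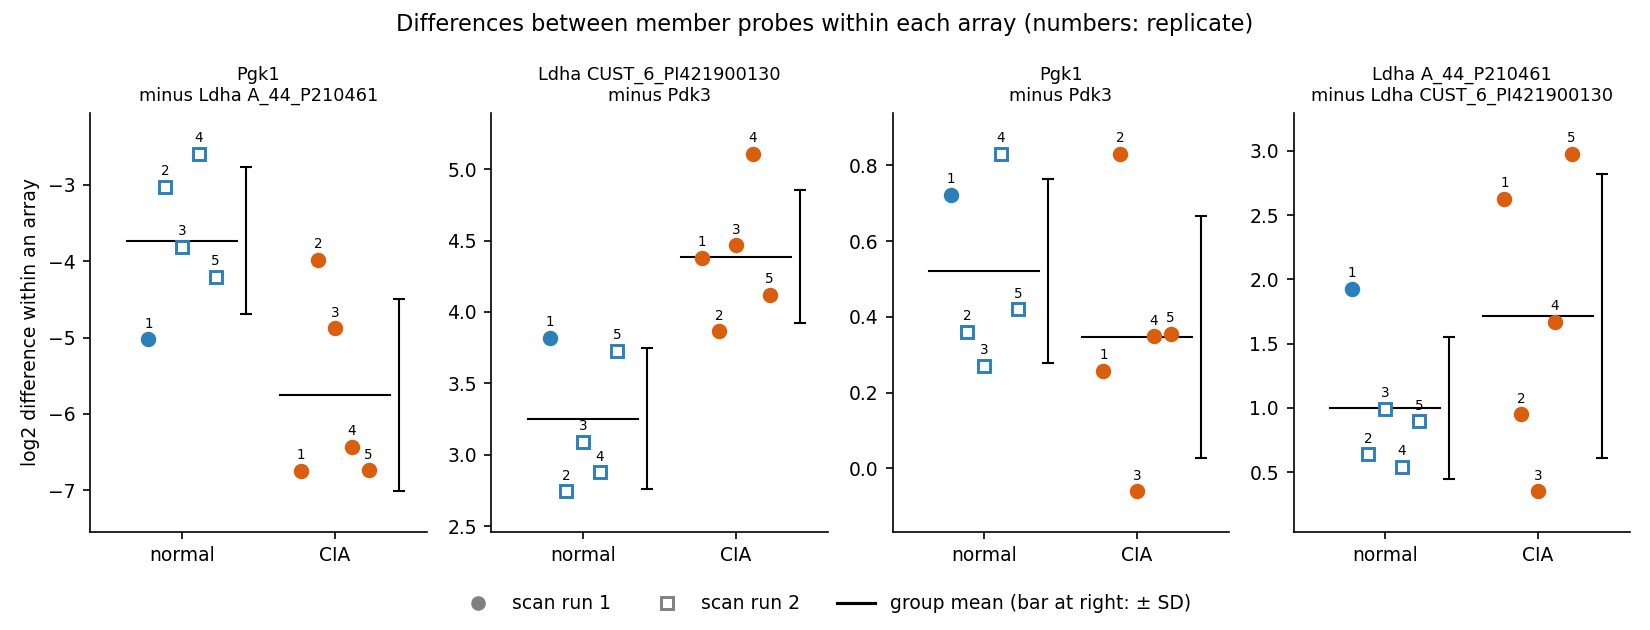
Log2 difference between 2 member probes within each array, for 4 of the 10 pairs, with a scale of its own in each panel; circles are arrays of scan run 1, open squares those of scan run 2, lines the group means and bars ± SD (n = 5 each). The groups separate for Ldha CUST_6_PI421900130 minus Pdk3 (3.82 at most in normal, 3.86 at least in CIA) and overlap in the other panels.

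Normal replicate 1, the only normal array of scan run 1, was then set against both groups. For Pgk1 its log2 level differed from the mean of the normal arrays of scan run 2 by -0.99 (-2.07 against -1.08 ± 0.58, SD, n = 4), and the CIA mean differed from the same mean by -1.43. For Pdk3 the distances were -1.24 for normal replicate 1 (-2.79 against -1.55 ± 0.46, SD, n = 4) and -1.30 for the CIA mean. For A_44_P210461 of Ldha they were 0.63 and 0.92. Sdha had distances of 1.03 for normal replicate 1 and 0.55 for the CIA mean, and CUST_6_PI421900130 of Ldha had -0.53 and -0.03. For Pgk1, Pdk3, Sdha and A_44_P210461, normal replicate 1 lay on the same side of the mean of scan run 2 as the CIA mean. For CUST_6_PI421900130 the CIA mean lay within the spread of scan run 2 (SD 0.18, n = 4), so it had no clear side. On 4 of the 5 probes, normal replicate 1 fell between the lowest and the highest CIA array, and for Sdha it exceeded all of them.

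With scan run as a block, the group difference rests on normal replicate 1 against the 5 CIA arrays. The log2 difference was then -0.44 for Pgk1 (SE 0.73), -0.06 for Pdk3 (SE 0.64), 0.30 for A_44_P210461 of Ldha (SE 0.56), 0.51 for CUST_6_PI421900130 (SE 0.53) and -0.48 for Sdha (SE 0.48). The limma adjusted p was 0.99 for Pdk3 and 0.89 for the others, and 0 of the 62 probes (0%) passed (1 probe, or 1.61%, had an unadjusted p under 0.05). Sdha changed direction. The 95% confidence intervals were wide, -2.04 to 1.17 for Pgk1 and -1.47 to 1.35 for Pdk3, and include the differences of the whole comparison. Within scan run 1, Pgk1 minus CUST_6_PI421900130 differed by -0.94. CUST_6_PI421900130 minus Pdk3 differed by 0.57 there, with a sign that the lack of overlap between the groups fixes. The exact permutation p of such a comparison cannot go below 0.17. Scan run 2 held normal arrays alone and gives no group difference.

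**Figure D5:**
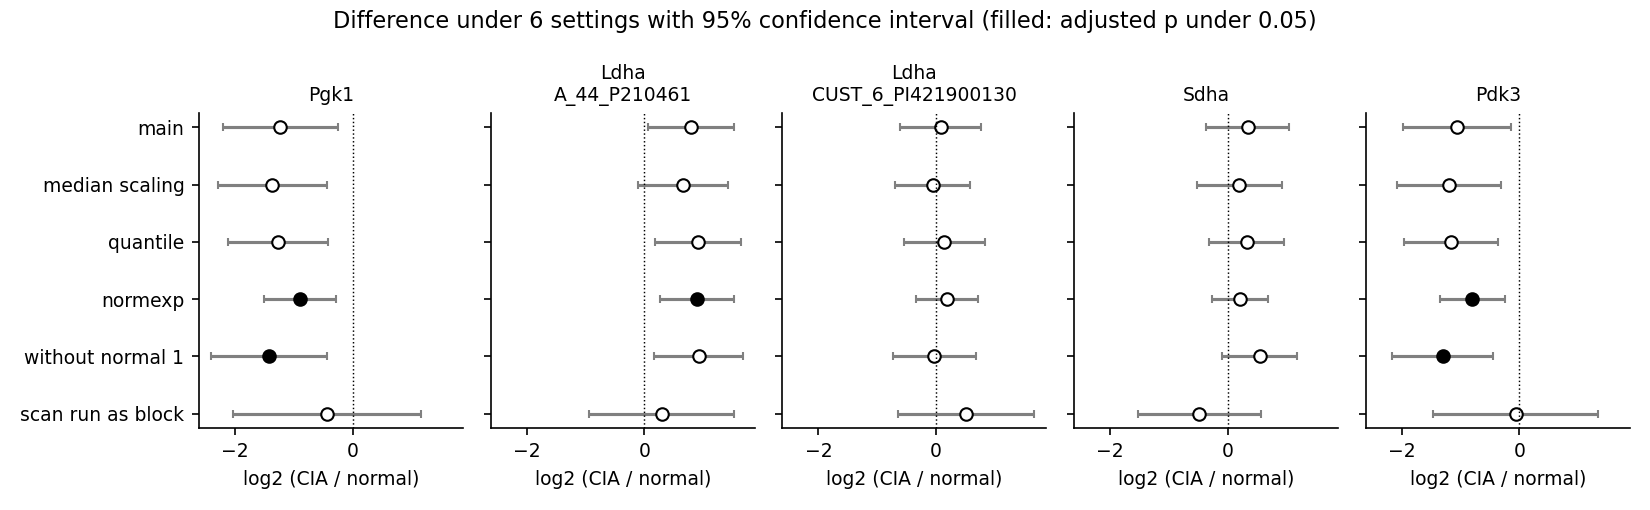
Log2 difference of CIA against normal arrays for each member probe under 6 settings, with 95% confidence intervals; filled points have a limma adjusted p under 0.05. Pgk1 (-0.90), Pdk3 (-0.80) and Ldha A_44_P210461 (0.89) pass in the normexp setting, where 22.6% of the 62 linear-transcript probes pass. Without normal replicate 1, Pgk1 (-1.43) and Pdk3 (-1.30) pass, where 38.7% of the 62 do. With scan run as a block every interval includes 0.

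More probes passed under the normexp setting. It differs from the main setting in 3 steps at once, a background correction that models background and signal, the median spot signal in place of the processed signal and an added offset of 50, and which of them moved the calls was not tested. Under it 14 of the 62 probes (22.6%) passed an adjusted p of 0.05 in limma. Pgk1 (-0.90, SE 0.28), Pdk3 (-0.80, SE 0.25) and A_44_P210461 of Ldha (0.89, SE 0.29) were among them, each with an adjusted p of 0.040. Sdha (0.20) and CUST_6_PI421900130 (0.19) were not, with adjusted p of 0.45 and 0.51. The median log2 difference over the 62 linear-transcript probes was -0.34 under this setting, against 0.12 in the main one. The same median was -0.02 with scaling to the circRNA median, -0.15 after quantile normalization and 0.45 with scaling to the 75th percentile of the linear probes. Relative to the median under normexp, A_44_P210461 lay further from the other probes and Pgk1 and Pdk3 nearer to them than in the main setting. Among the pairs, 3 of the members' 10 had the smallest possible exact permutation p under normexp, 0.0079, which 7.3% of the 1891 pairs also had there.

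Within the CIA group, the members split the arrays in the same way on several probes. CIA replicates 1, 4 and 5 had the lowest Pgk1 and Pdk3 and the highest A_44_P210461 and Sdha levels of the group, and the lowest levels of CUST_6_PI421900130. CIA replicates 2 and 3 stood at the other end on all 5 probes. Of the circRNA probes, the part well above background was 93.4%, 96.8% and 99.3% on replicates 1, 4 and 5 and 99.8% on both replicates 2 and 3. Its part in the split was not tested. Across all 10 arrays, which share scaling and scan runs, the gene most like Pgk1 was Pdk3 (Pearson r = 0.96, Spearman rho = 0.96), followed by Actb (r = 0.86), which encodes beta-actin, and Pop7 (r = 0.85), a subunit gene of ribonuclease P. The genes most like Pdk3 were Pgk1, Pop7 (r = 0.91) and Trim2 (r = 0.88), a ubiquitin ligase gene. A_44_P210461 of Ldha and Sdha had the same nearest genes, Pdcd10 (r = 0.87 and 0.88) and Dlg4 (r = 0.85 and 0.87), and then each other (r = 0.81). Pdcd10 is a gene of vascular integrity and Dlg4 encodes a synaptic scaffold. CUST_6_PI421900130 stood nearest to Cdh2 (r = 0.83, rho = 0.77), the N-cadherin gene. Ndfip2 (r = 0.69, rho = 0.45) and Nat1 (r = 0.61, rho = 0.44) followed, each with a lower Spearman rho than Pearson r. These values are descriptions over 37 or 38 named probes.

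Among the 39 named linear-transcript probes, the wider pathways were measured by the members alone. Probes without a gene name could not be assigned to a pathway. Of 30 genes of glycolysis and lactate export, Pgk1 and Ldha had a named linear-transcript probe. Of 14 genes of pyruvate entry it was Pdk3, and of 19 genes of the citric acid cycle it was Sdha. No gene passed in either direction in these lists. None of 9 genes of the hypoxia response, and 1 of 41 markers of 12 cell types, had a named probe. That marker was Map2 of nerve, with a log2 difference of -0.0074 (SE 0.32, limma adjusted p = 0.98). The synovial label and the part of immune or muscle cells in these values could therefore not be checked against defining markers.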

How the data were processed

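Cy3-labelled cRNA of 10 RNase R-treated synovial samples was hybridised to 1 single-colour array each. Agilent Feature Extraction 11.0.1.1 gave the deposited intensity values, per the file headers, after subtracting background within the array and with no scaling between arrays. Limma is the tool listed in the submitters' processing notes, with no version. The deposited value table lists circRNA probes only and was not used. Each array held 15701 spots: 536 control spots, 14145 spots of as many circRNA probes, 620 spots of 62 linear-transcript probes with an accession, and 400 spots of 20 probes without a name, which were left out. Accessions without version were matched to RefSeq (GRCr8), which named 39 of the 62 probes. Log2 processed signal, averaged over spots without those marked as outliers, had the 75th percentile of the array's circRNA probes subtracted. Groups came from the sample titles and were compared in R 4.3.3 by limma 3.58.1 (lmFit, eBayes) over the 62 probes, two-sided, with Benjamini-Hochberg adjustment and a threshold of 0.05. Exact permutation tests used all divisions of 10 arrays into 5 and 5. Normexp used the median spot and background signal and an offset of 50. The members and lists were chosen with earlier results of these data known. Named genes were the members, the 3 named probes with the highest Pearson correlation to each member probe, and the measured genes of the lists. The model was tested on simulated data. Same-numbered arrays did not deviate together (correlations -0.09 to 0.18), so the numbers were not taken as pairs. Figures were drawn with matplotlib 3.10.9. The number of arrays limits the precision.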

Additional observations from a re-analysis of the deposited data

How the results depend on the processing

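Over 13 settings besides the main one and 10 fits that left out 1 array, Pgk1 and Pdk3 read lower and A_44_P210461 of Ldha higher on the CIA arrays throughout. Not all settings could change a direction. The fit with the circRNA probes, the limit to detected probes, the replicate block and the exact permutation test keep the main difference by construction. Scan run as a block and scan run 1 alone give the same difference, which for Pdk3 was only -0.06 (SE 0.64 with the block). Pgk1, Pdk3 and A_44_P210461 passed after normexp (-0.90, -0.80 and 0.89). Leaving out 1 array gave -1.56 to -1.03 for Pgk1, past the threshold without normal replicate 1 or CIA replicate 2, -1.30 to -0.86 for Pdk3, past it without normal replicate 1, 0.62 to 0.97 for A_44_P210461, 0.21 to 0.55 for Sdha and -0.088 to 0.22 for CUST_6_PI421900130. Sdha was -0.48 with scan run as a block and within scan run 1 alone, and CUST_6_PI421900130 was -0.058 after median scaling. The number of linear-transcript probes past the adjusted threshold in limma was 2 in the main fit, 5 after quantile normalization and 5 with the 75th percentile of the linear probes. It was 14 after normexp, and 0 when fitted with the circRNA probes or with scan run as a block. It ranged from 0 to 24 when 1 array was left out, with 24 without normal replicate 1 and 8 without normal replicate 5. The exact permutation test called 0. Its smallest possible p is 0.0079, which the adjustment lifts above the threshold unless many probes reach such values. With the replicate number as a block 5 probes passed, none of them a member; the numbers are not pairs, and the adjusted p was 0.070 for Pgk1 and 0.073 for Pdk3. For the pairs, normexp gave -1.09 for Pgk1 minus CUST_6_PI421900130, 0.69 for A_44_P210461 minus Sdha and 0.99 for CUST_6_PI421900130 minus Pdk3, each past the threshold at an exact permutation p of 0.026 adjusted over the members' 10 pairs, and with an unadjusted p that 7.3% of all 1891 pairs reached. Within scan run 1, Pgk1 minus Sdha was 0.047, A_44_P210461 minus CUST_6_PI421900130 was -0.21, CUST_6_PI421900130 minus Sdha was 0.99 and Sdha minus Pdk3 was -0.42, all turned in direction. The cause of these changes was not tested. The deposited value table could not be tried because it lists no member probe. All member spots were marked well above background, so detection was not the limit. The Pgk1 and Pdk3 probes read only 39.1 to 118 and 30.7 to 91.8 signal units, and the part of low signal in their differences was not tested. The spread between 5 arrays a group, and the lone normal array in scan run 1, limit every comparison.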
